A study of Mus musculus with 6 samples.

Results

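Tight junction strands and their scaffolds were examined in mouse liver through 10 genes: the claudins Cldn1, Cldn2, Cldn3, Cldn12 and Cldn14, the MARVEL-domain proteins Ocln, Marveld2 and Marveld3, the scaffold Tjp1 and the immunoglobulin protein F11r. They were matched by symbol among the 16426 genes listed in at least 1 of 6 liver RNA libraries, and all 10 were listed in every library. One group was given the AAV8 vector with a short hairpin RNA (shRNA) against S1pr2, a receptor for the lipid sphingosine-1-phosphate (3 S1PR2 livers), and its control AAV8 with a scrambled shRNA (3 Scramble livers). Both groups were labelled as a mixed B6:sv129 background aged 7 to 12 weeks, and the series text describes male wild-type mice that drank dexamethasone, a synthetic glucocorticoid, at about 0.84 mg/kg for 7 days. The libraries' own labels name the shRNA and no other agent, and no animals without vector or without dexamethasone were analysed here. The promoter of the hairpin is not given in the sources used here. Wild-type mice came from more than one source laboratory, per the series text. No label ties a replicate to an animal of its own, so each p-value reflects the spread among these libraries alone, and that spread may be technical.

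The 10 genes were chosen by their role in the junction and with earlier results of these livers known, that is, the counts and FPKM of the S1PR2 and the Scramble livers. Their differences between the groups are therefore a description and carry no p-value. Genes named below that are not among the 10 were tested where they passed the count filter.

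Tight junctions seal the space between neighbouring epithelial cells. In liver they close off the bile canaliculus, the narrow channel between hepatocytes into which bile is secreted, and so separate bile from blood. Claudins span the membrane and polymerise into the strands that set which ions and water pass. Occludin and its MARVEL relatives travel with the strands, tricellulin (Marveld2) gathers where 3 cells meet, and ZO proteins tie the strands to actin.

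The libraries held 16558775 to 17410160 expected counts, the number of fragments assigned to genes, and listed 14522 to 15106 genes each. Of these genes, 12230 passed the count filter and were tested, all 10 junction genes among them. Each of the 10 had at least 24 counts in every liver, so none passed the filter through 1 group alone. S1pr2 itself stood at 3.04, 2.21 and 2.23 CPM (counts scaled to library size) in S1PR2 livers 1 to 3, against 4.41, 5.23 and 6.66 CPM in Scramble livers 1 to 3. The hairpin's target was thus lower in every S1PR2 liver (log2 fold change -1.12, SE 0.24, edgeR quasi-likelihood adjusted p = 0.0301), on 36 to 110 counts per liver. Levels of different genes are compared below in FPKM, fragments scaled to transcript length and library size, as deposited. Fold changes come from the edgeR fit of the counts. In bulk liver RNA, more cells of a type and more RNA per cell cannot be told apart.

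Among the claudins, Cldn1 and Cldn3 were higher in every S1PR2 liver than in any Scramble liver, while Cldn2, Cldn12 and Cldn14 overlapped. Cldn1, a barrier-forming claudin that is also a co-receptor for hepatitis C virus in human liver, had 39.9, 36.7 and 39.2 FPKM in S1PR2 livers 1 to 3, against 7.56, 14.2 and 12.2 FPKM in Scramble livers 1 to 3. The groups did not overlap, and the lowest S1PR2 liver lay well above the highest Scramble liver. Its log2 fold change was 1.61 (SE 0.23), a 3.06-fold difference, with 121 ± 6.10 CPM in the S1PR2 livers and 39.5 ± 12.7 CPM in the Scramble livers (SD, n = 3 each). Cldn3, a sealing claudin, had 93.2, 94.2 and 96.3 FPKM in S1PR2 livers, against 24.96, 46.04 and 30.04 FPKM in Scramble livers. The S1PR2 livers were close to each other and the Scramble livers were widely spread, with Scramble liver 1 the lowest for both genes. The log2 fold change of Cldn3 was 1.34 (SE 0.24), with 113 ± 10.1 CPM in the S1PR2 livers and 44.7 ± 15.8 CPM in the Scramble livers (SD, n = 3 each).

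Cldn2 forms channels for small cations and water, and in rat liver its protein is graded along the lobule, with more around the central vein. It had 20.8, 14.9 and 24.7 FPKM in S1PR2 livers and 26.8, 18.2 and 16.7 FPKM in Scramble livers. The groups overlapped, and Scramble liver 1, the lowest for Cldn1 and Cldn3, was the highest of all livers for Cldn2. Its log2 fold change was -0.18 (SE 0.23), and it turned to 0.04 without Scramble liver 1. Cldn12, an unusual claudin without the C-terminal motif that binds ZO proteins, had 13.6, 12.6 and 14.4 FPKM in S1PR2 livers and 13.9, 12.6 and 12.4 FPKM in Scramble livers. It was the steadiest claudin of the 5, with overlapping groups and a log2 fold change of -0.09 (SE 0.10) from counts, against 0.06 in log2 FPKM with a pseudocount of 0.1. Cldn14, a claudin that limits cation passage in kidney and inner ear, had 3.79, 2.82 and 4.50 FPKM in S1PR2 livers and 4.05, 4.91 and 4.70 FPKM in Scramble livers. The groups overlapped, with S1PR2 liver 2 the lowest (log2 fold change -0.45, SE 0.20, from 62 to 111 counts per liver).

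**Figure D1:**
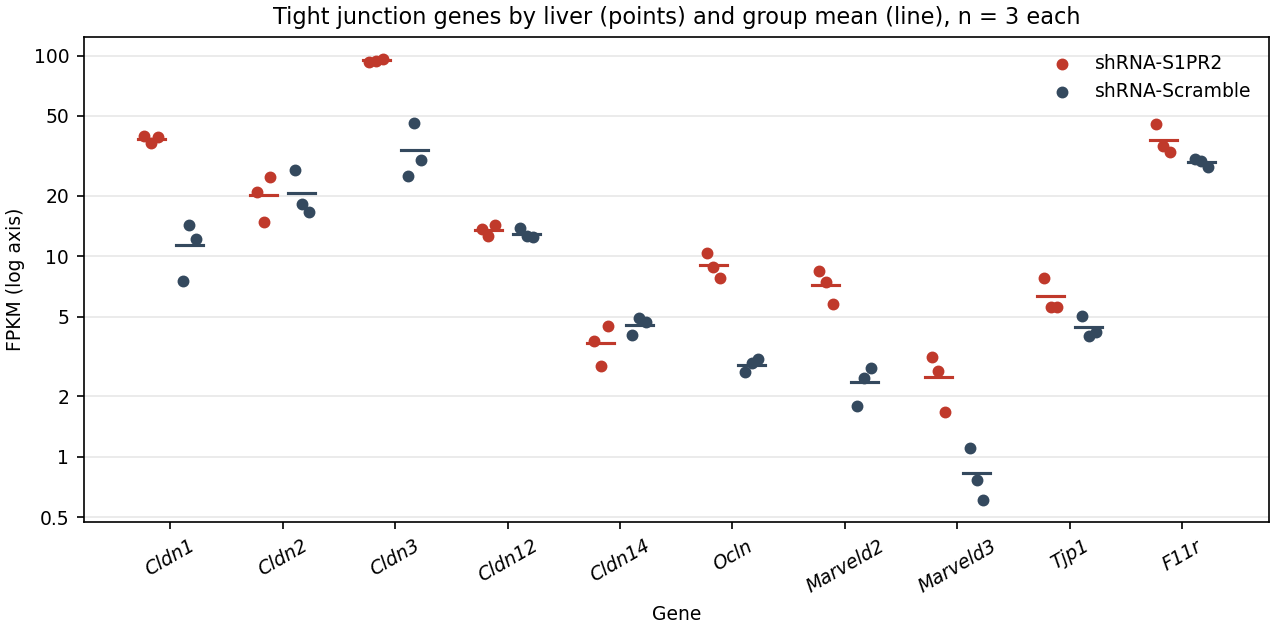
FPKM (log axis) of the 10 junction genes, with 1 point per liver, S1PR2 livers left of Scramble livers, and a line at each group mean (n = 3 each). Cldn1, Cldn3, Ocln, Marveld2, Marveld3 and Tjp1 have every S1PR2 liver above every Scramble liver, and the points of Cldn2, Cldn12 and Cldn14 overlap; F11r separates in FPKM and overlaps in CPM.

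All 3 MARVEL genes were higher in the S1PR2 livers by 2.77 to 2.86-fold. Ocln, which encodes occludin, had 10.4, 8.82 and 7.77 FPKM in S1PR2 livers 1 to 3, against 2.64, 2.92 and 3.07 FPKM in Scramble livers 1 to 3. Here both groups were tight and the gap between them was wide: the log2 fold change was 1.49 (SE 0.12), with 27.4 ± 2.62 CPM in the S1PR2 livers and 9.77 ± 0.878 CPM in the Scramble livers (SD, n = 3 each). Marveld2, which encodes tricellulin, had 8.41, 7.42 and 5.75 FPKM in S1PR2 livers, against 1.80, 2.47 and 2.78 FPKM in Scramble livers. The S1PR2 livers were all above the Scramble livers, S1PR2 liver 3 being the lowest of its group (log2 fold change 1.52, SE 0.22). Marveld3 had 3.15, 2.69 and 1.67 FPKM in S1PR2 livers, against 1.10, 0.77 and 0.61 FPKM in Scramble livers. It was the least abundant of the 10 genes in both groups, on 62 to 116 counts per S1PR2 liver and 24 to 40 counts per Scramble liver, and its log2 fold change was 1.47 (SE 0.29). The ratio of Ocln to Marveld2 FPKM was 1.24, 1.19 and 1.35 in S1PR2 livers and 1.47, 1.18 and 1.10 in Scramble livers, so the proportion of these transcripts overlapped between the groups. Ocln had a fractional count, as RSEM gives where a fragment fits more than one place, in 2 livers.

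The scaffold and the immunoglobulin protein differed less. Tjp1, which encodes ZO-1, had 7.80, 5.60 and 5.60 FPKM in S1PR2 livers and 5.05, 4.02 and 4.17 FPKM in Scramble livers. No liver crossed between the groups, yet the step was small (log2 fold change 0.36, SE 0.12). F11r encodes JAM-A, which helps to place the polarity complex at a forming junction and is also made by endothelial cells and leukocytes. It had 45.3, 35.4 and 32.9 FPKM in S1PR2 livers and 30.6, 29.9 and 27.9 FPKM in Scramble livers, with a log2 fold change of 0.21 (SE 0.11). The FPKM of F11r did not overlap between the groups, whereas the CPM did, at 98.2, 89.8 and 80.2 CPM in S1PR2 livers and 78.8, 80.9 and 72.8 CPM in Scramble livers. F11r had fractional counts in 6 livers, so its level is uncertain.

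In the fit over all 12230 genes, 5 of the 10 junction genes were called higher (Cldn1, Cldn3, Ocln, Marveld2 and Marveld3) at an edgeR adjusted p under 0.05. None was called lower, at an unadjusted p under 0.05 none was lower either, and DESeq2 and limma-voom also gave 5 higher and 0 lower. Over all genes 7.66% were called, 3.02% higher and 4.64% lower. In CPM every S1PR2 liver lay above every Scramble liver for 6 of the 10 genes and below for 0, against 15.1% and 16.8% of all genes tested. As the genes were chosen with these values known, nothing is read from the counts. The median log2 fold change of the 10 was 0.85, beside 0.01 over all genes tested. Cldn1, Ocln and Marveld2 were called whichever liver was left out. These refits use the same livers with which the genes were chosen, so they describe the calls only. The call of Cldn3 was lost without S1PR2 liver 2, S1PR2 liver 3 or Scramble liver 3, and that of Marveld3 without S1PR2 liver 1, S1PR2 liver 2, Scramble liver 2 or Scramble liver 3.

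**Figure D2:**
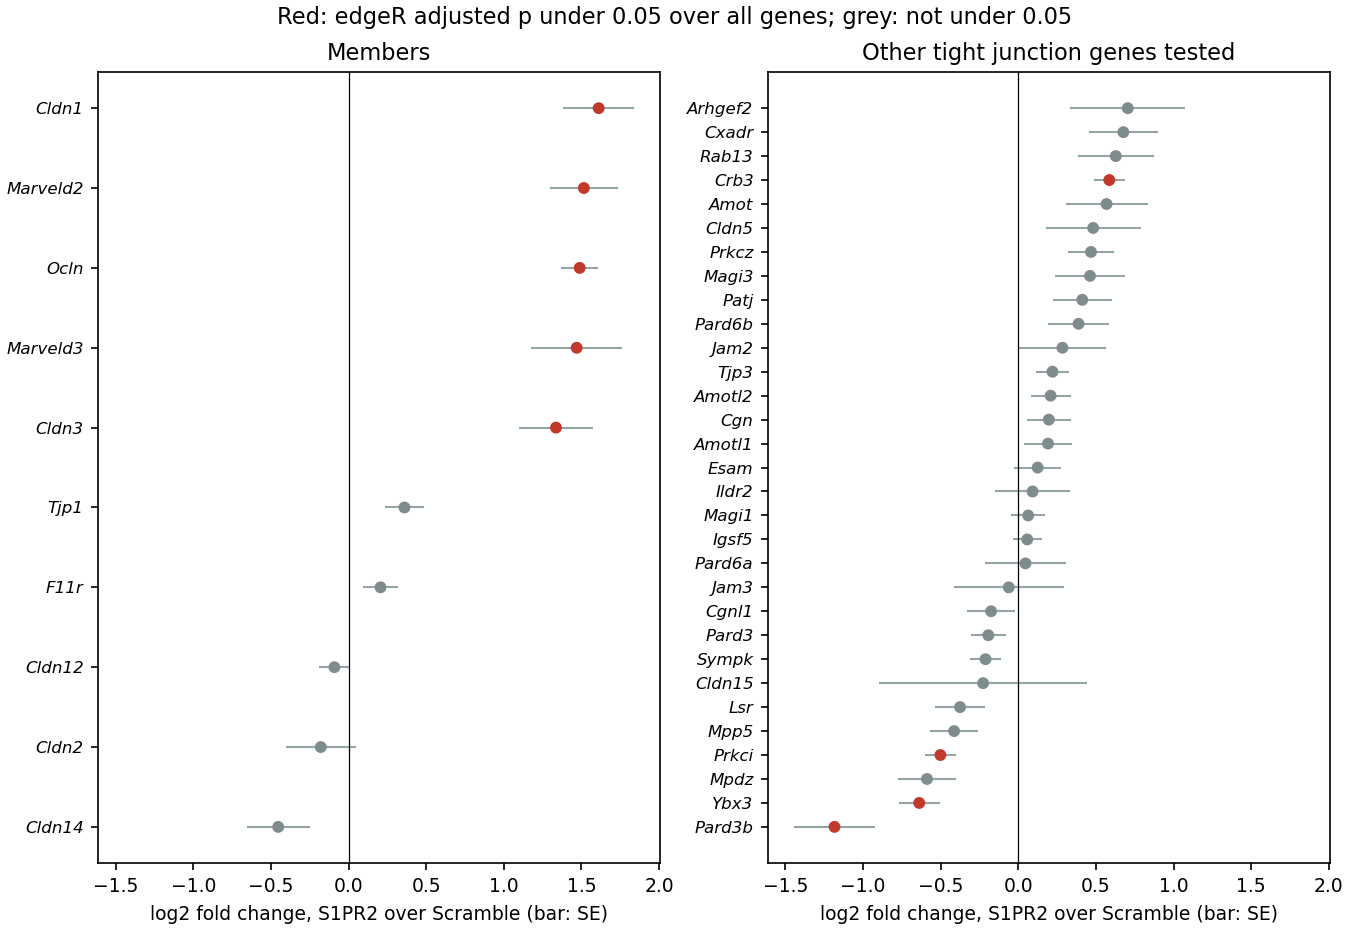
Log2 fold change (S1PR2 over Scramble, edgeR; bars are SE) of the 10 junction genes on the left and of other tested tight junction genes on the right; red marks an edgeR adjusted p under 0.05 over all genes. On the left 5 genes stand between 1.34 and 1.61 and the other 5 between -0.45 and 0.36; on the right Crb3 is the red point above 0 and Prkci, Ybx3 and Pard3b are those below.

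The order of the transcripts by level differed between the groups. In the S1PR2 livers Cldn3 was the most abundant, with 94.6 ± 1.58 FPKM, followed by Cldn1 (38.6 ± 1.68 FPKM) and F11r (37.9 ± 6.55 FPKM), whose ranges overlapped (SD, n = 3 each). Cldn2, Cldn12 and Ocln came next without overlapping each other, and the ranges of Ocln and Marveld2, of Marveld2 and Tjp1, of Ocln and Tjp1, and of Cldn14 and Marveld3 overlapped. In the Scramble livers Cldn3 (24.96 to 46.04 FPKM) and F11r (27.9 to 30.6 FPKM) overlapped at the top, Cldn2 was next by mean, and Cldn1 (11.3 ± 3.42 FPKM; SD, n = 3) came in place 5, overlapping Cldn12. Cldn2 (16.7 to 26.8 FPKM) also overlapped Cldn3, which it exceeded in Scramble liver 1, where the ratio of Cldn3 to Cldn2 was 0.93. Marveld3 was last in both groups.

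The FPKM of all 20 listed claudin genes summed to 179, 165 and 184 in S1PR2 livers 1 to 3, against 80.0, 99.9 and 80.3 in Scramble livers 1 to 3. Every S1PR2 liver had the larger pool, and no liver lay between the groups. Cldn3 made up 53.8 ± 2.80% of the pool in S1PR2 livers and 38.2 ± 7.49% in Scramble livers, and Cldn1 21.9 ± 0.534% in S1PR2 livers and 12.97 ± 3.09% in Scramble livers (SD, n = 3 each). The channel-forming Cldn2 made up 11.4 ± 2.23% in S1PR2 livers and 24.2 ± 8.23% in Scramble livers, although its own FPKM overlapped between the groups. The ratio of Cldn1 to Cldn2 FPKM was 1.92, 2.47 and 1.58 in S1PR2 livers, against 0.282, 0.785 and 0.733 in Scramble livers, so Cldn1 exceeded Cldn2 in every S1PR2 liver and in no Scramble liver.

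**Figure D3:**
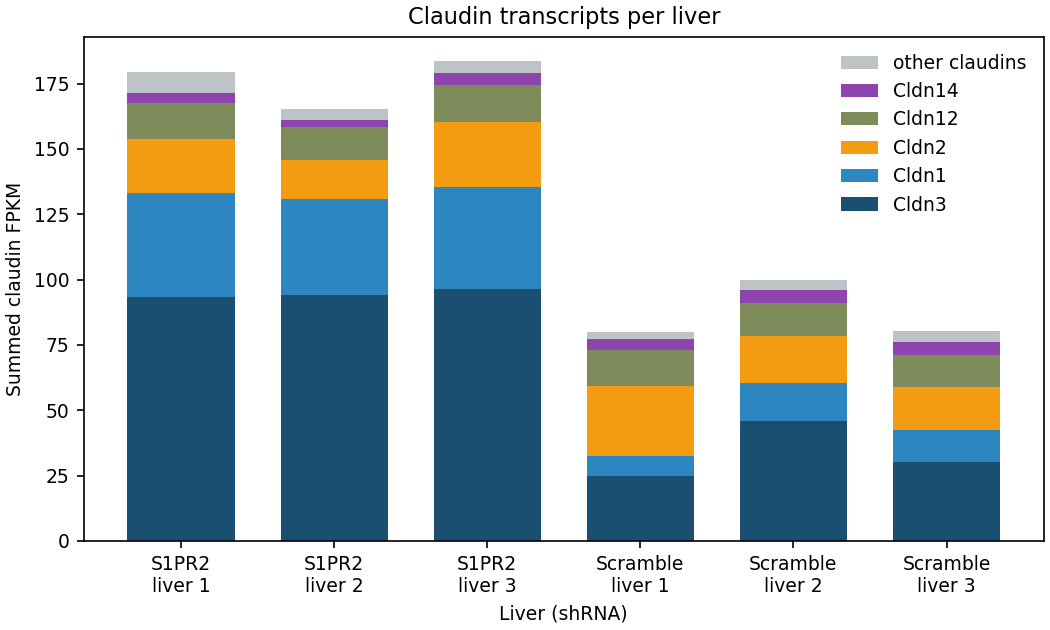
Summed FPKM of all listed claudin genes in each liver, stacked by gene, with S1PR2 livers on the left and Scramble livers on the right. The S1PR2 bars reach 165 to 184 FPKM and the Scramble bars 80.0 to 99.9 FPKM, and the Cldn3 and Cldn1 segments carry most of the difference.

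The start regions of the genes are shown because Cldn1, Cldn3, Ocln and Marveld2 were higher together while Cldn2 was not. RefSeq promoter windows (250 bases before to 50 after a gene's start, GRCm38.p6) were found for 9 of the 10 genes, in 15 windows. The first listed window is printed 5′ to 3′ on the gene's strand for chr16:26371790-26372089 (Cldn1, minus strand), chr5:134985964-134986263 (Cldn3, plus strand), chr13:100552669-100552968 (Ocln, minus strand), chr13:100616922-100617221 (Marveld2, minus strand) and chrX:139800558-139800857 (Cldn2, plus strand). Capitals mark matches on either strand to 1 of 7 short motifs. Among these are the E-box CAGGTG, the TEAD motif GGAATG, the GC box GGGCGG, the TATA box TATAAA and the CCAAT box. The other motifs are AGGTCA, a part of a nuclear receptor element, and AGAACA, a part of a glucocorticoid receptor element. A match to either does not by itself show a whole element.
Cldn1: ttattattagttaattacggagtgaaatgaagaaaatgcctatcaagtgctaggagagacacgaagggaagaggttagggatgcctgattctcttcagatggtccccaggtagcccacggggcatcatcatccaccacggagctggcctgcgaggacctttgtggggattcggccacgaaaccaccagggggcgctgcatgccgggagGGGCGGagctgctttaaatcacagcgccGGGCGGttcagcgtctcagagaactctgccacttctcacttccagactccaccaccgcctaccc
Cldn3: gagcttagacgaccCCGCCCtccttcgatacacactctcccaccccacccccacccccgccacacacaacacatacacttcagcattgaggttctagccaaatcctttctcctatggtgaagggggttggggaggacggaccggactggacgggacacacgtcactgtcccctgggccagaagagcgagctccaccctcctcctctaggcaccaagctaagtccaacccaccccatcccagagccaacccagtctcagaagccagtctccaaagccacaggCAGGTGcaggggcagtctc
Ocln: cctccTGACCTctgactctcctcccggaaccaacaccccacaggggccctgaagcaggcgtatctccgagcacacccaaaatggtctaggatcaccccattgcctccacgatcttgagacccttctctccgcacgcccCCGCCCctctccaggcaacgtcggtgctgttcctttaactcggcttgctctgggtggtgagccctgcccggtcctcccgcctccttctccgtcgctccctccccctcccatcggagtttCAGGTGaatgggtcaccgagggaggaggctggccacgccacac
Marveld2: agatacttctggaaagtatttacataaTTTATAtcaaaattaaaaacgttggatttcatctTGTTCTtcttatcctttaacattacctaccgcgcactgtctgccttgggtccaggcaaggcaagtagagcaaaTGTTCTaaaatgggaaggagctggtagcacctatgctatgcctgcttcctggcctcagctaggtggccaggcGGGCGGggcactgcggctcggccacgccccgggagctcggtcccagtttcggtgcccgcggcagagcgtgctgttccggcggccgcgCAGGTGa
Cldn2: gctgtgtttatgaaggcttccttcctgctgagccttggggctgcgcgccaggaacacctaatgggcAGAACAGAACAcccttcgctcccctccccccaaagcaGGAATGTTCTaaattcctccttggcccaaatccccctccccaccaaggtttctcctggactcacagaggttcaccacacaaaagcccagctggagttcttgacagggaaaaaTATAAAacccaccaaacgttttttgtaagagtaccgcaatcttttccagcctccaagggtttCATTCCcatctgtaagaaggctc

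The E-box CAGGTG, a sequence that Snail and ZEB repressors can bind, was in the printed windows of Cldn3 (at base 32 after the start), Ocln (base 8) and Marveld2 (base 44), and in neither that of Cldn1 nor that of Cldn2. It was also in windows of F11r and Cldn14, and 20.2% of all 32851 windows hold it. The GC box was in the printed windows of Cldn1, Cldn3, Ocln and Marveld2, in windows of Tjp1, F11r and Cldn12, which were not called, and in 35.7% of all windows. The Cldn2 window differed in having TATAAA at -35, where a TATA box usually lies (13.6% of all windows hold these letters anywhere), with 3 matches to AGAACA, of which 1 overlaps a GGAATG match and the other two overlap each other; 19.0% of all windows hold AGAACA and 14.7% GGAATG. The motif AGGTCA, in the Ocln window, was in 16.3% of all windows, and the CCAAT box, in none of the 5 printed, in 37.4%. The Marveld2 window held AGAACA at -189 and -116 and TATAAA at -223, all on the other strand. These matches describe the letters in the windows only.

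Ocln and Marveld2 are next to each other among the protein-coding genes of the RefSeq annotation of chromosome 13. The genes on either side of this pair did not pass the test: Gtf2h2 had a log2 fold change of 0.15 (standard error 0.18, edgeR adjusted p = 0.661) and Rad17 of -0.34 (SE 0.13, edgeR adjusted p = 0.145). The neighbours were looked at after the values of the 10 genes had been seen. Of 36 different genes within 2 places of any of the 10, 22 were tested, 0 rose and 1 fell by the edgeR test (median log2 fold change -0.16). Over all genes tested 3.02% rose and 4.64% fell, with a median of 0.01, and nothing is read from the neighbours' count. The gene that fell was Morc4, beside Cldn2 (log2 fold change -2.33, standard error 0.20, edgeR adjusted p = 0.00290). Cldn4, the neighbour of Cldn3, did not pass the count filter.

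The rest of the claudin family was nearly silent. Of 15 other listed claudins 10 had fewer than 10 counts in every liver, and only Cldn5 and Cldn15 passed the filter. Cldn5, the claudin of blood vessels, had 2.27, 2.56 and 3.06 FPKM in S1PR2 livers and 1.43, 2.36 and 1.31 FPKM in Scramble livers, with overlapping groups (log2 fold change 0.48, standard error 0.31, edgeR adjusted p = 0.382). Cldn15 had 1.83, 0.51 and 0.51 FPKM in S1PR2 livers and 0.35, 0.82 and 1.75 FPKM in Scramble livers (log2 fold change -0.23, standard error 0.67, edgeR adjusted p = 0.879). Neither of the 2 passed, also by DESeq2, limma-voom or an unadjusted edgeR p under 0.05. S1PR2 liver 1 stood apart for a further pair, named after its values were seen. Cldn4 had 35, 0 and 2 counts in S1PR2 livers and 1, 0 and 3 counts in Scramble livers, and Cldn6 had 44, 1 and 4 counts in S1PR2 livers and 3, 0 and 3 counts in Scramble livers.

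Among the partners of the strands at the same junction, few passed the test, in both directions. Of 32 other tight junction genes tested 1 rose, 3 fell and 28 did not pass, with a median log2 fold change of 0.16, beside 3.02% and 4.64% of all genes called higher and lower and a median of 0.01. Crb3, an apical polarity protein that helps to form the junction, rose: it stood at 17.9, 18.9 and 17.8 CPM in S1PR2 livers, against 11.5, 11.9 and 12.95 CPM in Scramble livers (log2 fold change 0.59, standard error 0.10, edgeR adjusted p = 0.0162). Ybx3, a Y-box factor that binds ZO-1, fell, at 39.2, 35.6 and 36.5 CPM in S1PR2 livers and 67.5, 48.3 and 57.6 CPM in Scramble livers (log2 fold change -0.64, standard error 0.13, edgeR adjusted p = 0.0285). Prkci, an atypical protein kinase C of the Par complex, fell, at 11.8, 10.9 and 11.7 CPM in S1PR2 livers and 16.9, 16.1 and 15.9 CPM in Scramble livers (log2 fold change -0.50, standard error 0.10, edgeR adjusted p = 0.0253). It had a fractional count in 1 liver. Prkcz, another atypical protein kinase C, named after its values were seen, was higher in every S1PR2 liver but not called (log2 fold change 0.47, standard error 0.15, edgeR adjusted p = 0.0963). It also had a fractional count in 1 liver. Pard3b, a relative of the Par3 scaffold, fell too (log2 fold change -1.18, standard error 0.26, edgeR adjusted p = 0.0348); it had fractional counts in 6 livers and is uncertain. None of these 4 calls was made without S1PR2 liver 2 or S1PR2 liver 3. Crb3 was also lost without Scramble liver 2, while Prkci kept its call only without S1PR2 liver 1, Pard3b only without Scramble liver 1 and Ybx3 only without Scramble liver 2, among the 6 fits with 1 liver left out; none of the 3 that fell was called on FPKM.

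Tjp3 (ZO-3), a relative of the Tjp1 scaffold named after its values were seen, was not called, with 36.9 ± 1.69 CPM in S1PR2 livers and 31.7 ± 2.95 CPM in Scramble livers (SD, n = 3 each; log2 fold change 0.22, standard error 0.10, edgeR adjusted p = 0.242; fractional counts in 5 livers). Neither of the 2 tested angulins, the receptors that bring tricellulin to 3-cell contacts, passed, also at an unadjusted edgeR p under 0.05 and by DESeq2 and limma-voom. Lsr, the abundant angulin of hepatocytes, had 256 ± 29.1 CPM in S1PR2 livers and 332 ± 53.4 CPM in Scramble livers (SD, n = 3 each; log2 fold change -0.38, standard error 0.16, edgeR adjusted p = 0.205), and Ildr2 had a log2 fold change of 0.09 (standard error 0.24, edgeR adjusted p = 0.862; fractional counts in 4 livers). Of 5 tested JAM and CTX immunoglobulin genes 0 passed edgeR; 1 had an unadjusted p under 0.05, and DESeq2 called 1 and limma-voom 0. That gene was Cxadr, the coxsackievirus and adenovirus receptor, with a log2 fold change of 0.68 (standard error 0.22, edgeR adjusted p = 0.109; 0.0355 to 0.250 over the other settings). Igsf5 stood at 0.06 (SE 0.09, edgeR adjusted p = 0.769).

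The cell contacts beside the tight junction, which hold cells together and couple them, included 3 genes that rose. Of 18 genes of adherens junctions, desmosomes and gap junctions 3 rose, 0 fell and 15 did not pass (median log2 fold change 0.25). Over all genes tested 3.02% rose and 4.64% fell, with a median of 0.01. In this list 0 were lower at an unadjusted edgeR p under 0.05. DESeq2 and limma-voom gave 4 and 3 higher and 0 lower. Cdh1 (E-cadherin) stood at 60.7, 50.3 and 23.7 CPM in S1PR2 livers, against 4.78, 7.84 and 8.41 CPM in Scramble livers (log2 fold change 2.68, standard error 0.41, edgeR adjusted p = 0.0188). Cdh2 (N-cadherin), the other cadherin of hepatocytes, rose as well (log2 fold change 0.53, standard error 0.11, edgeR adjusted p = 0.0321), as did Dsg2, a desmosomal cadherin (log2 fold change 0.70, standard error 0.15, edgeR adjusted p = 0.0338; fractional counts in 5 livers). Among the fits with 1 liver left out, Cdh1 was called only without S1PR2 liver 1 or S1PR2 liver 3, and Cdh2 and Dsg2 in none. With the replicate number as a block, Cdh2 kept its call, and Cdh1 and Dsg2 lost theirs. The catenins Ctnnb1 (-0.01, SE 0.10) and Ctnna1 (0.02, SE 0.13), named after their values were seen, had log2 fold changes near 0.

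Of 11 tested organisers of the apical membrane 0 passed edgeR, beside 7.66% of all genes tested. In this list 1 was lower at an unadjusted edgeR p under 0.05, 1 by DESeq2 and 0 by limma-voom (median log2 fold change 0.22). Its most abundant members were Ceacam1 (-0.48, SE 0.15, edgeR adjusted p = 0.0968; fractional counts in 5 livers) and the membrane-actin linker Rdx (0.22, SE 0.13, edgeR adjusted p = 0.352). Of 10 tested transcription factors tied to epithelial junctions 2 rose and 0 fell, beside 3.02% and 4.64% of all genes called higher and lower. Of these factors 1 was lower at an unadjusted edgeR p under 0.05 and 0 by DESeq2 and limma-voom (median 0.14). The pair that rose was Foxa1, a liver pioneer factor (26.2 ± 4.14 CPM in S1PR2 livers and 16.1 ± 3.13 CPM in Scramble livers; SD, n = 3 each; log2 fold change 0.70, standard error 0.17, edgeR adjusted p = 0.0450), and Elf3, an epithelial ETS factor at only 1.40 ± 0.202 CPM in S1PR2 livers and 0.408 ± 0.152 CPM in Scramble livers (SD, n = 3 each; log2 fold change 1.76, standard error 0.40, edgeR adjusted p = 0.0365). With 1 liver left out, Foxa1 was called only without Scramble liver 2, and Elf3 in no fit. The E-box repressors Snai1 (0.29, SE 0.35, edgeR adjusted p = 0.673), Snai2 (0.14, SE 0.20, edgeR adjusted p = 0.733), Zeb1 (-0.29, SE 0.11, edgeR adjusted p = 0.135) and Zeb2 (0.46, SE 0.35, edgeR adjusted p = 0.470) did not pass; they were named after their values were seen, and Snai2 and Zeb1 had fractional counts in 6 livers.

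Among 8813 other genes with at least 5 CPM on average, those closest to each called junction gene were found by the root mean square difference of mean-centred log2 CPM over the 6 livers. Atoh8 lay closest to Cldn1 (0.098 log2 units), with Srd5a1 and Cyp1a2 after it. Nat8f2 lay closest to Cldn3 (0.109), with Osgin1 and Tsc22d1 next. Shank2 lay closest to Ocln (0.063), followed by Igsf23 and Kifc3. Plk2 lay closest to Marveld2 (0.138), followed by Shank2 and Atoh8, and Acot1 to Marveld3 (0.204), followed by Ahr and Mmp15. Among the 10 junction genes the nearest pairs were Tjp1 with F11r (0.121), Ocln with Marveld2 (0.174) and Cldn1 with Cldn3 (0.198). This distance includes the difference between the groups, which was known when the 10 genes were chosen. The genes named as closest had log2 fold changes of 1.155 to 1.82 themselves, and Tjp1 and F11r both differed little. Likeness apart from the group difference was not tested.

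Summed markers of endothelial and lymphoid cells were higher in every S1PR2 liver than in any Scramble liver, and those of bile duct cells were so only with Cdh1 among them. Summed hepatocyte markers, most of whose CPM came from Alb, were lower in every S1PR2 liver than in any Scramble liver. Bile duct cells also carry Cldn1, Cldn3 and Ocln, and the 10 listed cholangiocyte markers summed to 191, 124 and 92.6 CPM in S1PR2 livers 1 to 3, against 48.6, 68.5 and 81.5 CPM in Scramble livers 1 to 3. Cdh1, described above and also a periportal marker, is one of them. Without it, in a sum chosen after seeing the data, the other 9 gave 130, 74.0 and 69.0 CPM in S1PR2 livers, against 43.8, 60.6 and 73.1 CPM in Scramble livers, and the groups overlapped. Of the 8 listed markers tested 2 rose and 0 fell, beside 3.02% and 4.64% of all genes called higher and lower. At an unadjusted edgeR p under 0.05, by DESeq2 and by limma-voom 0 fell as well. The duct keratins Krt7 and Krt19 did not pass: Krt19 had 3.95, 2.20 and 2.87 CPM in S1PR2 livers and 2.21, 4.98 and 10.6 CPM in Scramble livers (log2 fold change -0.97, standard error 0.56, edgeR adjusted p = 0.345), and Krt7 had 6.93, 1.53 and 1.35 CPM in S1PR2 livers and 1.04, 2.68 and 6.90 CPM in Scramble livers (edgeR adjusted p = 0.961). No marker of this list was at 0 in every liver, and Cftr was at 0 in 1. The 9 endothelial markers summed to 208 to 228 CPM in S1PR2 livers and 173 to 187 CPM in Scramble livers. Of them 3 rose (Cdh5, Kdr and Tie1), 0 fell and 6 did not pass, beside 3.02% and 4.64% of all genes called higher and lower. Singly, 4 of the 9 were higher in every S1PR2 liver, and 8 had a positive log2 fold change. Lyve1, named after its values were seen, went the other way with overlapping groups (log2 fold change -0.83, SE 0.36, edgeR adjusted p = 0.2275). The part of these cells in the junction results was not tested.

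The 7 lymphocyte markers summed to 9.72 to 14.5 CPM in S1PR2 livers and 1.47 to 4.36 CPM in Scramble livers; of 2 tested, Cd4 rose (edgeR adjusted p = 0.0402). Macrophage markers (123 to 252 CPM in S1PR2 livers and 93.8 to 166 CPM in Scramble livers) and stellate markers (306 to 412 CPM in S1PR2 livers and 201 to 376 CPM in Scramble livers) overlapped, and S1PR2 liver 1 was the highest for both; 0 of 7 in each list passed edgeR, DESeq2 or limma-voom, with 0 and 1 at an unadjusted p under 0.05. The 8 hepatocyte markers, albumin among them, were abundant in every liver, as the tissue label says. Their sum was 99100 to 135400 CPM in S1PR2 livers and 150200 to 172900 CPM in Scramble livers. Every S1PR2 liver thus lay below every Scramble liver in this sum. Most of it was Alb, at 56835 to 85603 CPM in S1PR2 livers and 103260 to 129030 CPM in Scramble livers. Taken singly, 2 of the 8 markers were lower in every S1PR2 liver, 1 was higher and the others overlapped. The higher one was Apoa1, at 8775 to 13307 CPM in S1PR2 livers and 2057 to 7807 CPM in Scramble livers. Of the 8 markers 0 passed edgeR. At an unadjusted edgeR p under 0.05 and by DESeq2 1 was higher and 2 were lower, and 0 passed limma-voom. Pericentral markers, relevant to Cldn2, summed to 6795 to 11370 CPM in S1PR2 livers and 6931 to 8472 CPM in Scramble livers, with Cyp1a2 and Lgr5 the 2 of 9 that rose. Periportal markers summed to 5167 to 8410 CPM in S1PR2 livers and 7901 to 10490 CPM in Scramble livers, with Cdh1 the 1 of 9 that rose. Beside these marker counts, 3.02% of all genes tested rose and 4.64% fell.

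**Figure D4:**
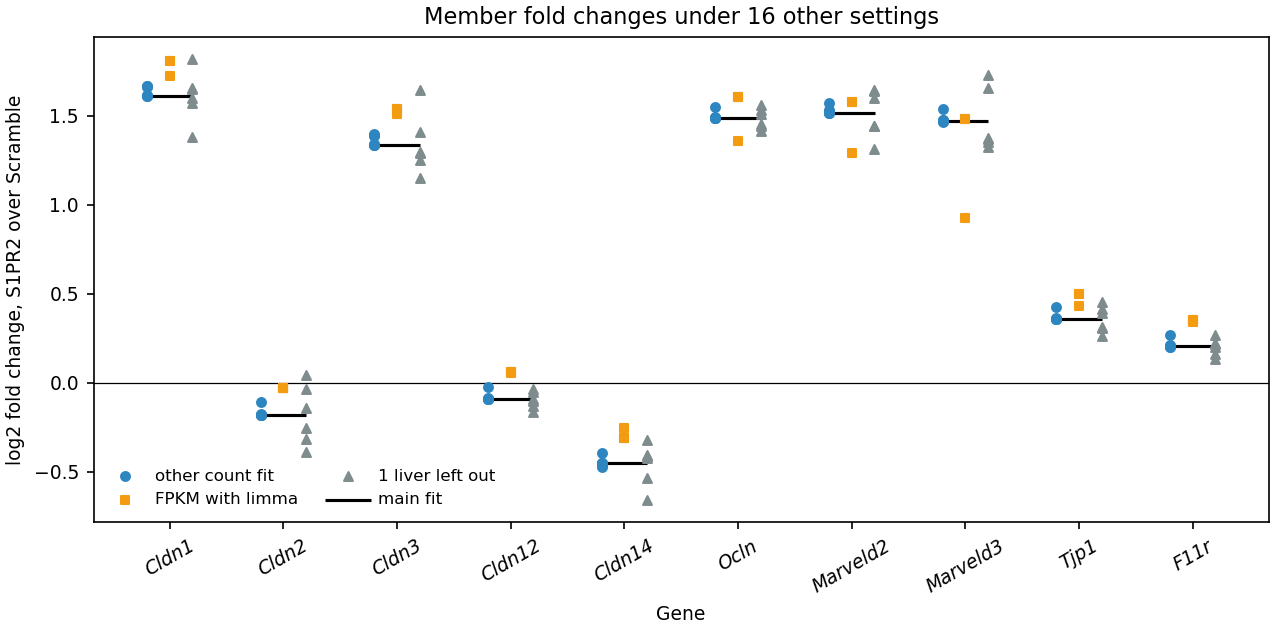
Log2 fold change (S1PR2 over Scramble) of the 10 junction genes in the edgeR fit (black line) and in 16 other settings, grouped as other count fits, limma on FPKM and 1 liver left out. Cldn1 runs from 1.38 to 1.82, Ocln from 1.36 to 1.60 and Marveld3 from 0.92 to 1.73, while Cldn2 and Cldn12 lie on both sides of 0.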

How the data were processed

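The tools named per the submitters' processing notes are RSEM 1.2.12, Bowtie2, DESeq2 and HISAT2, with mouse build mm9. What each did, the read filters and the strand handling are not stated there. The authors deposited 1 table per liver with an expected count per gene, not scaled to depth, and an FPKM per gene, scaled by the authors to transcript length and mapped fragments. Genes absent from a table were set to 0. Expected counts were rounded, filtered with filterByExpr (minimum count 10) and scaled by TMM (factors 0.924 to 1.15). The groups were compared over 12230 genes with the two-sided edgeR 4.0.16 quasi-likelihood test (robust, group only; R 4.3.3), with Benjamini-Hochberg adjustment over the whole table and a threshold of 0.05; the script was tested on simulated data. Alternatives used DESeq2 1.42.0 and limma 3.58.1. All 15 pairs of libraries differed beyond sampling noise (chi-square per degree of freedom 20.1 to 193).

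The junction genes and the lists were chosen with earlier results of these data known, and p-values of the junction genes are left out. Named genes from the lists are those past the test, up to 6 a list by smallest p, and, where none passed, the 2 with the highest mean CPM; exceptions are marked. Some results are not reported here. Promoter sequences are from RefSeq (GRCm38.p6).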

Additional observations from a re-analysis of the deposited data

How the results depend on the processing

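Cldn1, Cldn3, Ocln, Marveld2 and Marveld3 were called under each of the 10 settings that kept all livers. As the genes were chosen with the values of these livers known, such refits describe the calls only. Without 1 liver the number of junction genes called higher ran from 3 to 5, with 0 called lower throughout. Of 160 recomputed member fold changes, 153 moved by less than 1 SD between replicates, 7 moved by more and 0 of the called ones changed sign.

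The number of other tight junction genes that rose was 1, and 2 with upper-quartile factors, with DESeq2 or with the replicate block. Without 1 liver 0 to 1 rose and 0 to 1 fell; by limma on FPKM (pseudocount 0.1, 1, or 0.1 without a filter) 0 fell. Of the junction-linked genes (contacts, apical organisers, transcription factors and a list not reported here) 5 rose and 2 fell. With the replicate block 2 rose, on FPKM 0 fell, and without 1 liver 0 to 1 rose and 0 to 2 fell. Over all genes 369 rose and 568 fell, against 506 and 476 with upper-quartile factors. DESeq2 gave 616 rises, FPKM with a pseudocount of 0.1 gave 570 rises and 254 falls, with a pseudocount of 1 243 falls, and without a filter 205 falls. Without 1 liver 78 to 266 rose and 153 to 377 fell, the lowest without S1PR2 liver 2. On FPKM the median log2 fold change of all genes was 0.16, 0.10 and 0.13 in these settings, against 0.01 from counts, so FPKM ratios read higher; the cause was not tested. Without S1PR2 liver 2 none of the other tight junction or junction-linked genes was called.

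Deviations of livers with the same number had correlations of -0.06, 0.22 and -0.12, within the -0.30 to 0.30 of livers with different numbers. With 3 livers in each group these values cannot decide whether the number pairs livers. The replicate block gave 342 rises and 466 falls over all genes. Marveld3, with 24 to 116 counts per liver, had the fewest counts of the 10 genes in a single liver.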
